A study of Mus musculus with 15 samples.

Results

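Cd8a and Cd4 encode the coreceptors that divide conventional T cells into cytotoxic and helper lineages, and their signals were followed here in rejecting mouse heart and liver grafts. Members were taken as every non-control probe of Cd8a, Cd8b1 and Cd4 whose accession matched the gene. This gave 2 of the 3 genes, among 18217 on the array with a matched probe, and 4 of its 41174 probes. Of the 4, 3 belonged to Cd8a: A_51_P345121 and A_52_P443334, both designed on NM_001081110, and A_52_P150547, designed on NM_009857. The fourth, A_52_P383089 on NM_013488, was the only Cd4 probe. No probe was matched to Cd8b1, the beta chain of CD8, so that gene was not analysed here.

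The 15 one-colour arrays fell into 5 groups of 3. Heart allografts had been placed in the abdomen of CBA (H-2k) recipients from sex-matched B10 (C57BL/10, H-2b) donors and were taken at POD5, post-operative day 5. Liver allografts from BR (B10.BR, H-2k) donors had replaced the liver of D2 (B10.D2, H-2d) recipients and were taken at POD5 or POD8. The remaining 2 groups were heart and liver control tissue, described as normal tissue in the methods and labels. Other passages of the study speak of isografts or syngeneic grafts, so whether the control tissue had been transplanted is not settled, and the effect of surgery cannot be told apart from that of rejection here. All mice were male, no immunosuppression was part of the model, and an age was not given. A graft holds donor parenchyma together with donor and recipient leukocytes, which these whole-tissue RNAs do not separate. The study's PCR passages speak of individual mice, but the array labels do not tie arrays to animals, so p-values measure only the spread between these arrays.

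CD8 binds class I and CD4 class II molecules of the major histocompatibility complex on the cell that presents antigen. Inside the T cell both carry the kinase Lck to the CD3 chains of the antigen receptor. CD8 occurs as an alpha-beta heterodimer, encoded by Cd8a and Cd8b1, on cytotoxic T cells, and as an alpha-alpha homodimer on some dendritic and unconventional T cells, so that Cd8a alone does not mark one lineage. In the mouse, CD4 is also found on some dendritic cells. Killing of graft cells by CD8 T cells and help from CD4 T cells are both textbook parts of acute rejection.

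The study's quantitative PCR assay for Cd8a names the same transcript, NM_001081110, as 2 of the 3 Cd8a probes. Its 2 primers are shown because they identify the transcript that assay and array have in common.
Cd8a forward primer, 5′ to 3′: tgccatgagggacacgaataataag
Cd8a reverse primer, 5′ to 3′: agtagagttcactttctgaaggactg

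Hepatocyte markers reached a summed normalized signal of 552900 to 669700 on the liver arrays and 14.68 to 25.03 on the heart arrays, and the cardiomyocyte list summed to 489900 to 589100 on heart control, 285300 to 494900 on heart allograft and 424.8 to 1673 on liver arrays. The 75th percentile of processed signal was 394.1 to 710.5 on heart allograft arrays, 1021 to 1247 on heart control arrays, 338 to 477.9 on liver allograft arrays and 92.14 to 225.8 on liver control arrays (both liver allograft times lay within that range). Between 52.5% and 70.5% of probes were well above background, the scanner software's call that a spot exceeds its local background. All heart allograft arrays lay on 1 slide and all heart controls on another, so that in the heart slide cannot be told apart from group. The POD5 liver allografts shared no slide with the liver controls or with the POD8 allografts, so slide cannot be told apart from group there either. Of the liver arrays, 2 POD8 allografts and 2 controls shared 1 slide.

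Cd8a rose in every graft. In the heart, A_51_P345121 had normalized log2 signals of 12.001, 11.13 and 12.20 in the 3 allografts and of 5.58, 5.43 and 6.27 in the 3 controls. Allograft replicate 2 was the lowest of its group, and even so it stood far above every control. The difference was 6.02 (95% confidence interval 5.40 to 6.64), a 64.9-fold higher signal, with an adjusted p of 7.7e-08 in limma, and 4.53 with the normexp background correction (adjusted p = 6.6e-08). Before normalization the processed signals of this probe were 2151 to 6162 in allografts and 87.1 to 175.6 in controls.

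The other Cd8a probes moved the same way in the heart. A_52_P150547 had log2 signals of 9.26, 8.44 and 9.38 in allografts and 3.61, 2.81 and 3.32 in controls, a difference of 5.78 (4.76 to 6.80; adjusted p = 4.8e-06). A_52_P443334, which is printed in 10 spots per array, had 9.09, 7.61 and 9.21 against 3.49, 3.65 and 4.31, a difference of 4.82 (3.90 to 5.73; adjusted p = 8.7e-06). Replicate 2 was again the lowest allograft on both. The probes gave 64.9-fold, 54.9-fold and 28.2-fold higher signals for the same gene, so the size of the rise depended on the probe while its direction did not. It also depended on the background correction: with normexp A_52_P150547 differed by 3.005 and A_52_P443334 by 2.51, both still called. All 3 Cd8a probes were well above background on all 6 heart arrays, controls included. Beside the rise, the cardiomyocyte gene Tnni3, cardiac troponin I, fell by 0.98 (adjusted p = 0.021) and the other 3 markers of that list did not pass, a change whose part in the Cd8a difference was not tested.

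Cd4 changed far less in the heart. Its log2 signals were 4.76, 5.28 and 4.76 in allografts and 3.98, 4.37 and 4.14 in controls, so the groups did not overlap, and replicate 2, lowest for Cd8a, was highest for Cd4. The difference was 0.77 (0.42 to 1.11), or 1.70-fold, with an adjusted p of 0.0033 in limma. The call ended under the methods' t-test after Benjamini-Hochberg adjustment (adjusted p = 0.069) and under SFC, the standardized fold change of the study (adjusted p = 1, Bonferroni), and the difference shrank to 0.22 (adjusted p = 0.02) with the normexp background correction. The processed signals before normalization overlapped, at 34.8 to 49.0 in allografts and 35.0 to 39.5 in controls, on arrays whose 75th percentile was lower in allografts.

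With Cd4 included, 4 of 4 member probes were called higher in heart allografts; over the whole array 13.3% of the 41003 tested probes were called higher and 28.6% were called in either direction. On each of the 4 the lowest allograft exceeded the highest control, as on 29% of all probes.

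**Figure D1:**
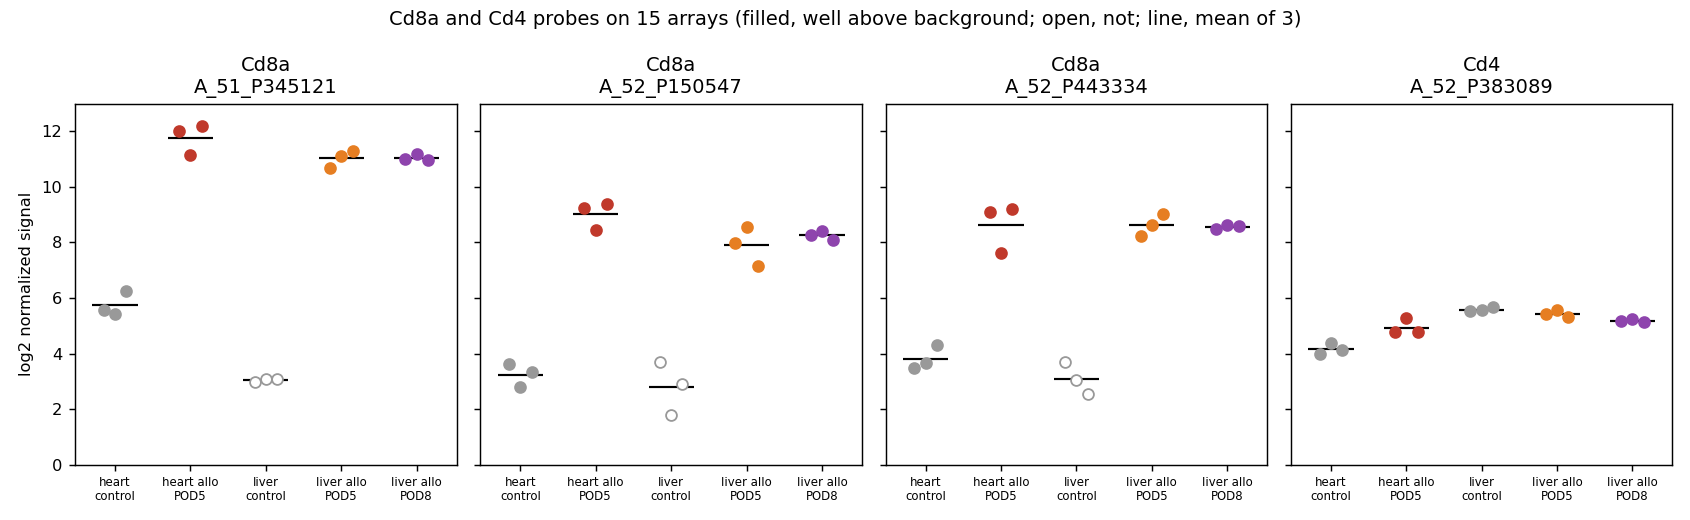
Normalized log2 signal (vertical axis) of the 3 Cd8a probes and the Cd4 probe on each of the 15 arrays, by group (horizontal axis); filled points were well above background, open points were not, and each line is the mean of 3 arrays. Cd8a is high in the 9 allografts on every probe and open in the 3 liver controls, whereas all Cd4 points lie between 3.98 and 5.66.

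In liver allografts Cd8a was high too, against controls in which it was not well above background on any array. A_51_P345121 had log2 signals of 10.67, 11.13 and 11.30 at POD5 and of 10.99, 11.20 and 10.96 at POD8. In the liver controls it read 2.98, 3.09 and 3.08, processed signals of 2.09 to 5.45. Because the controls gave only a bound, the fold is a lower bound: at least 104-fold for the POD5 grafts and at least 105.3-fold for the POD8 grafts (adjusted p = 1.3e-07 for each in limma). The bound sets each control array at its lowest signal among probes well above background.

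The other 2 Cd8a probes gave lower bounds. A_52_P150547 read 7.99, 8.57 and 7.15 at POD5, 8.26, 8.42 and 8.07 at POD8 and 3.70, 1.80 and 2.92 in controls; its bounds were at least 11.9-fold for POD5 and at least 15.1-fold for POD8 (adjusted p = 3.2e-05 and 2.1e-05). A_52_P443334 read 8.22, 8.65 and 9.02 at POD5, 8.47, 8.63 and 8.58 at POD8 and 3.70, 3.06 and 2.53 in controls; its bounds were at least 19.7-fold and at least 18.7-fold (adjusted p = 7.4e-06 and 8.6e-06). POD5 replicate 3, which shared a slide with the heart allografts, was the lowest of its group on A_52_P150547 and the highest on the other 2 probes. Within the slide that held 2 POD8 allografts and 2 controls, the bounds were at least 109-fold, 16.2-fold and 18.7-fold for A_51_P345121, A_52_P150547 and A_52_P443334. With normexp the 3 probes differed by 4.69, 2.26 and 2.66 at POD5 and by 4.78, 2.48 and 2.60 at POD8 on the log2 scale, all still called.

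Cd4 showed no such rise in the liver. Its log2 signals were 5.42, 5.56 and 5.31 at POD5, 5.16, 5.23 and 5.15 at POD8, and 5.54, 5.55 and 5.66 in controls. The POD5 difference was -0.16 (-0.50 to 0.19; adjusted p = 0.56), an interval that leaves out a rise of the size seen in the heart. At POD8 all 3 allografts lay below all 3 controls, as for 18.6% of all probes, and the difference was -0.40 (-0.75 to -0.06; adjusted p = 0.13). Within the shared slide it was -0.35. Before normalization the processed signals ran the other way, at 28.5 to 50.3 (POD5) and 30.1 to 39.7 (POD8) against 10.7 to 27.9 in controls, on arrays whose 75th percentile was lower in controls. Scaled to that percentile and taken relative to the median of all probes, the Cd4 difference was 0.26 at POD5 and 0.01 at POD8, so its sign in the liver depended on the scaling.

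In the liver, then, 3 of 4 member probes, all of Cd8a, were called higher at POD5, where 8.12% of all probes were called higher and 15.1% in either direction. The methods' t-test with Benjamini-Hochberg adjustment ended the POD5 call of A_52_P150547 (adjusted p = 0.081). The same 3 were called higher at POD8, with 7.02% of all probes called higher and 11.7% in either direction. Both liver comparisons used the same 3 control arrays.

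Between POD5 and POD8 0 of 4 members passed in limma, none had an unadjusted p under 0.05, and 0.0293% of all probes (12 probes) were called. The difference, POD8 minus POD5, was 0.02 (-0.60 to 0.64) for A_51_P345121, 0.35 (-0.67 to 1.37) for A_52_P150547, -0.07 (-0.99 to 0.84) for A_52_P443334 and -0.25 (-0.59 to 0.10) for Cd4. All 3 POD8 arrays lay below all 3 POD5 arrays for Cd4, as for 10.4% of all probes.

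**Figure D2:**
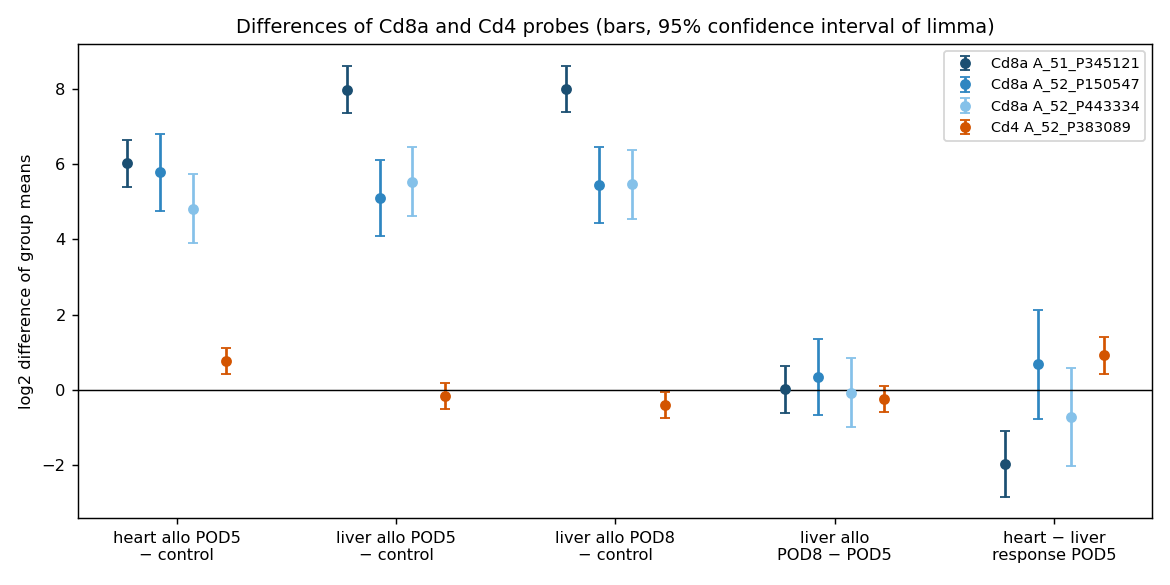
Log2 difference of group means (vertical axis) with its 95% confidence interval for each Cd8a probe (blue) and the Cd4 probe (orange) in 5 comparisons (horizontal axis). The Cd8a differences against controls lie between 4.82 and 7.999 and those of Cd4 between -0.40 and 0.77; liver values of Cd8a rest on controls not well above background.

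The response was then compared between organs, as the heart allograft minus control difference less that of the liver at POD5. Heart and liver grafts also differed in strain pair and in placement, and heart controls had a slide of their own. None of these can be told apart from organ, here or in the organ differences given below. Cd4 differed by 0.92 (0.44 to 1.41; adjusted p = 0.015). A_51_P345121 differed by -1.96 (-2.84 to -1.08; adjusted p = 0.0073), but its liver controls were at background. With these at their bound the difference was -0.68, and with normexp it was -0.16 (adjusted p = 0.78). The other Cd8a probes did not pass (adjusted p = 0.5 and 0.43), and with liver controls at their bound their differences could lie on either side of 0. Thus 2 of 4 members passed, with opposite signs, where 18% of all probes did.

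Ordered by level, heart allografts had the highest mean for every Cd8a probe and controls the lowest, but the top step passed on none of the probes. On A_52_P150547 heart allografts exceeded POD8 liver allografts by 0.77 (-0.25 to 1.79; adjusted p = 0.24). On A_52_P443334 they exceeded POD5 liver allografts by 0.0045 (-0.91 to 0.92). On A_51_P345121 the means ± SD (n = 3) ran from 11.78 ± 0.57 in heart allografts through 11.05 ± 0.13 in POD8 and 11.03 ± 0.32 in POD5 liver allografts to 5.76 ± 0.45 in heart controls and 3.05 ± 0.06 in liver controls. The step from heart to POD8 liver allografts, 0.73 (0.11 to 1.35), had an adjusted p of 0.068 (34.3% of all probes were called in that pair), and the 2 liver times did not differ beyond their spread. Heart controls exceeded liver controls by at least 1.43 on this probe, with liver controls at their bound (fitted adjusted p = 5.8e-06, in a pair with 54% of all probes called). On A_52_P150547 and A_52_P443334 the heart control means lay below the bound of the liver controls, so that no order of the 2 control groups can be given.

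The Cd4 order was another one. Liver controls had the highest mean, 5.58 ± 0.07, followed by POD5 liver allografts at 5.43 ± 0.12, POD8 liver allografts at 5.18 ± 0.05, heart allografts at 4.93 ± 0.30 and heart controls at 4.17 ± 0.20 (SD, n = 3). Of the neighbouring steps, that between heart allografts and heart controls passed the test, and the 3 others had adjusted p of 0.56, 0.66 and 0.26. That order is of normalized signals. Before normalization liver controls had the lowest processed signals of the 5 groups, 10.7 to 27.9, on arrays with the lowest 75th percentile. Within an array the Cd4 probe stood between the 39.8th and the 52.4th percentile of all probes, whereas A_51_P345121 moved from the 32.5th to 33.3rd percentile in liver controls to the 90.3rd to 94.4th in heart allografts. Cd4 was well above background on all 15 arrays, and its 10 spots agreed within an array to an SD of 0.083 to 0.253 on the log2 scale. It was a dim probe even so, with processed signals of 10.7 to 50.3. In liver controls its log2 signals were 5.54 to 5.66, where the lowest signals well above background were 4.09 to 4.56. Whether a probe this dim understates a change was not tested.

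The balance of the coreceptors was taken within each array as the log2 signal of A_51_P345121 minus that of Cd4. Such a difference between 2 probes is no ratio of transcripts, and only its change between groups is read. In the heart it was 7.24, 5.85 and 7.45 in allografts and 1.59, 1.06 and 2.12 in controls, a shift toward Cd8a of 5.25, or 38.1-fold. In the liver it was 5.25, 5.57 and 5.99 at POD5, 5.83, 5.97 and 5.82 at POD8, and -2.56, -2.46 and -2.58 in controls. With Cd8a in the liver controls set to its bound, the liver shift came to at least 116-fold (POD5) and at least 139-fold (POD8).

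Each shift had p = 0.10 in an exact permutation test, 2-sided, the smallest value that 3 against 3 arrays allow (Benjamini-Hochberg adjusted 0.13 over 12 tests). Permuting labels within each organ over all 15 arrays, with Cd8a in the liver controls at its bound, the mean shift of the 2 organs was at least 6.12, with an exact permutation p of 0.0006, the smallest this design can give, and every allograft exceeded every control of its organ. With either of the other Cd8a probes, treated alike, it was at least 4.52 and 4.30, and with normexp it was 4.59. From POD5 to POD8 the balance moved by 0.26 (exact permutation p = 0.40).

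Both coreceptors were also set against Cd3e, a chain of the antigen receptor complex of all T cells. Cd8a minus Cd3e shifted by 3.33 in heart allografts, and by at least 62.5-fold in POD5 and 64.2-fold in POD8 liver allografts. Cd4 minus Cd3e shifted by -1.92, -0.89 and -1.12 in the same 3 groups. Over both organs the shift was at least 4.66 for Cd8a and was -1.46 for Cd4 (exact permutation p = 0.0006 for each). The Cd3e probe moved less than those of its partner chains in the liver, where Cd3e differed by 0.74 at POD5 (adjusted p = 0.069) and Cd3d and Cd3g rose by 5.20 and 5.51. With the mean of Cd3d, Cd3e and Cd3g in its place, a choice made after the values were seen, the shift over both organs was 3.28 for Cd8a, as fitted, and -3.49 for Cd4. Cd8a stood by A_51_P345121 in these balances, and its other probes were not set against CD3 chains. At POD5 in the liver those probes rose by 5.10 (A_52_P150547) and 5.53 (A_52_P443334) as fitted, beside 5.20 for Cd3d and 5.51 for Cd3g. In the heart they rose by 5.78 and 4.82, beside 4.67 for Cd3d and 4.02 for Cd3g. The size of a Cd8a shift against CD3 thus depended on the probes chosen.

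**Figure D3:**
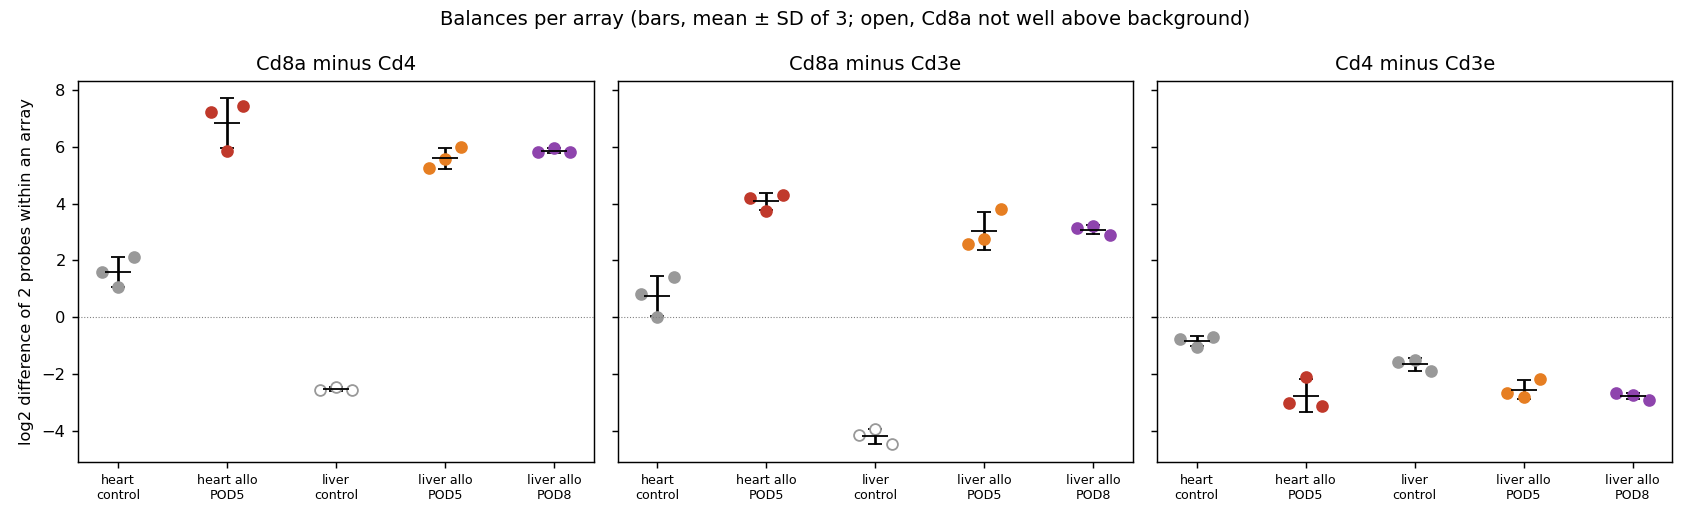
Log2 difference of 2 probes within an array (vertical axis) for Cd8a minus Cd4, Cd8a minus Cd3e and Cd4 minus Cd3e, by group (horizontal axis), with bars at the mean ± SD of 3 arrays; open points have Cd8a not well above background. Both Cd8a balances are higher in the allografts of each organ, and Cd4 minus Cd3e is lower, at -3.14 to -2.11 against -1.91 to -0.69 in controls.

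Of 4 class I genes 3 rose in each comparison, and of 3 class II ligands 2 rose in the heart and 3 at each liver time, where 28.6%, 15.1% and 11.7% of all probes were called. H2-K1 and H2-D1, the classical heavy chains, rose by 2.21 and 2.25 on the log2 scale in heart allografts, by 1.49 and 1.55 in POD5 liver allografts and by 1.21 and 1.38 in POD8 ones. B2m, their light chain, rose by 1.05, 0.92 and 0.95. H2-T3, the thymus leukemia antigen that binds the CD8 alpha homodimer, was well above background on 1 of 3 heart control arrays and on no array of the other groups. Donor and recipient carry different H-2 alleles, and how each allele binds these probes was not tested.

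Of the class II ligands, H2-Aa and H2-Ab1, the alpha and beta chains of I-A, rose by 2.29 and 4.46 in heart allografts, by 3.94 and 3.44 in POD5 liver allografts and by 4.60 and 3.89 in POD8 ones. The organs differed in opposite directions for the pair: the heart minus liver response at POD5 was -1.65 for H2-Aa (adjusted p = 0.036) and 1.01 for H2-Ab1 (adjusted p = 0.048). Il16, a cytokine that binds CD4, rose in the liver by 1.21 and 1.07 and read -0.04 in the heart (adjusted p = 0.94). H2-Eb1 was not matched. The median of the class I list was 1.63, 1.21 and 1.08 and that of the class II list 2.29, 3.44 and 3.89 in the heart and at the 2 liver times, beside 0.02, -0.07 and -0.08 over all probes.

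Of 11 measured genes of coreceptor signalling, 10 rose in heart, 7 in POD5 liver and 6 in POD8 liver allografts, and none fell (28.6%, 15.1% and 11.7% of all probes were called in either direction). Lck, the kinase bound by both coreceptor tails, rose by 4.97, 4.84 and 4.23. Lat, the adaptor that links the receptor to downstream signals, rose by 4.83, 3.96 and 2.91, and Ptprc, the phosphatase CD45 that activates Lck, by 1.34, 2.99 and 2.70. Csk, the kinase that restrains Lck, rose by 1.40 in heart and 0.84 in POD5 liver allografts and read 0.26 in POD8 liver allografts (adjusted p = 0.52). Pag1, the membrane adaptor of Csk, was not well above background on any array, and Fyn was not matched.

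The chains of the receptor complex rose with Cd8a in the heart. Cd3d rose by 4.67, Cd3e by 2.69, Cd3g by 4.02 and Cd247, the zeta chain, by 3.54. In liver allografts of POD5 and POD8, Cd3d rose by 5.20 and 4.51 and Cd3g by 5.51 and 5.31, and Cd247 was at least 23.5-fold and at least 16.1-fold higher. Lat and Cd3g were well above background on 2 of 3 liver controls. The probe of Zap70, the kinase recruited to these chains, differed between the organs. It rose by 4.73 in the heart and read -0.10 and 0.03 in the liver (adjusted p = 0.75 and 0.93). Its control level was 10.04 in the liver against 5.32 in the heart, and the response differed between organs by 4.83 (adjusted p = 1.3e-06). On this probe liver controls read about as high as liver allografts. Lck, Lat, Cd3d and Cd3g were far lower in the same controls than in the allografts. Whether the liver signal of the Zap70 probe, taken for its highest mean, came from T cells was not tested. Unc119, an activator of Lck, rose by 1.24 in the heart and read -0.10 and 0.22 in the liver (adjusted p = 0.85 and 0.64).

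**Figure D4:**
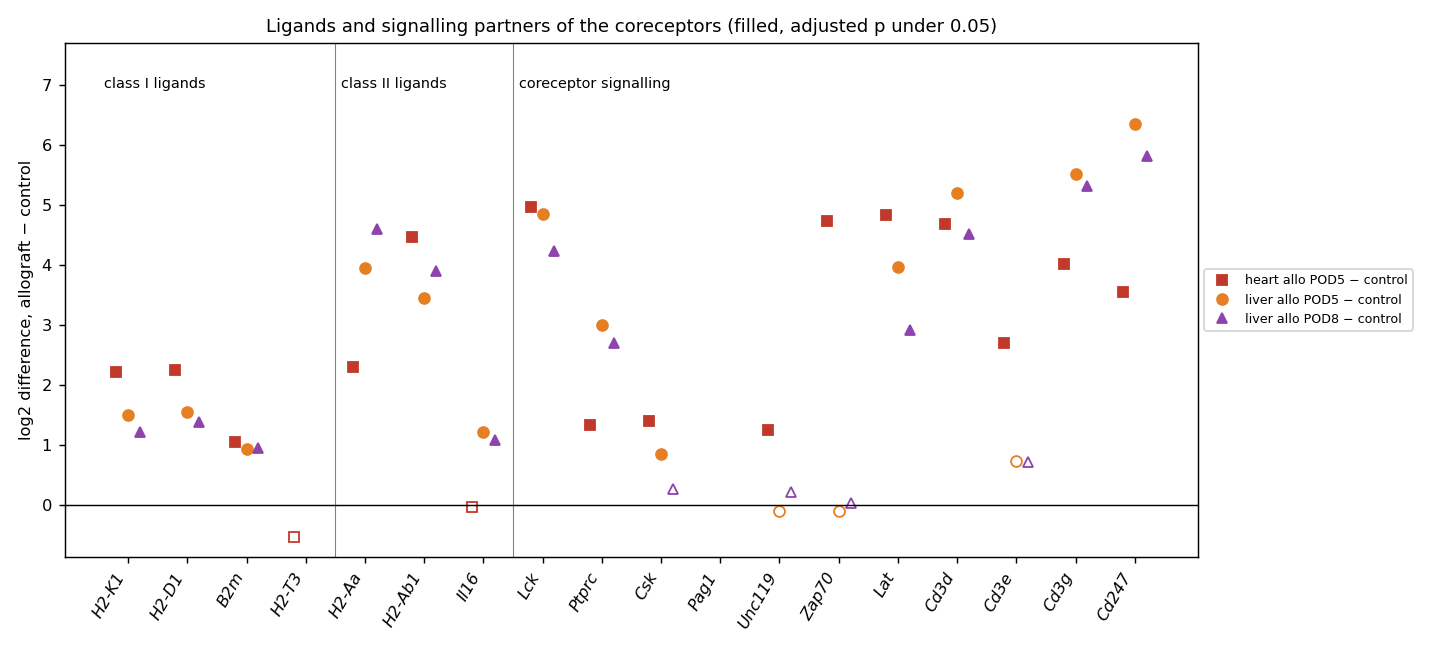
Log2 difference of allografts minus controls (vertical axis) for class I ligands, class II ligands and coreceptor signalling genes (horizontal axis) in the heart and at both liver times; filled symbols passed an adjusted p of 0.05, and genes not well above background in both groups are left out. Most receptor chains and class II genes lie above 2. Zap70 is filled for the heart alone, and its probe read about as high in liver controls as in liver allografts. Symbols show fitted values, also for Cd247 in the liver, whose controls were not well above background.

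Genes of the CD8 lineage and its killing function rose with Cd8a. All 10 rose in the heart and 8 rose at each liver time, with 28.6%, 15.1% and 11.7% of all probes called. Gzmb, the serine protease granzyme B, rose by 7.80, 7.12 and 6.76 in heart, POD5 liver and POD8 liver allografts. Prf1, the pore former perforin, rose by 6.65 in the heart and was at least 22.3-fold and at least 22.1-fold higher in the liver. At the low end, Runx3 and Patz1, transcription factors tied to CD8 lineage choice and to Cd8 regulation, rose by 1.06 and 0.64 in the heart and read -0.20 and -0.04 in the liver at POD5 (adjusted p = 0.52 and 0.93). The list median was 4.16 in the heart, and 4.54 and 4.09 at the liver times, or 3.29 and 2.62 with the genes at background in controls set to their bounds. Several of these genes are also expressed by natural killer cells.

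Genes of the CD4 lineage and of help were called in part: 5 of 10 rose in heart allografts, 4 in POD5 and 3 in POD8 liver allografts, and none fell, beside the same 28.6%, 15.1% and 11.7% of all probes. Tnfrsf4, the costimulatory receptor OX40, rose by 3.94 in the heart and read 0.70 in the liver at POD5 (adjusted p = 0.38), and the response differed by 3.25 (adjusted p = 0.0091). Tox, a factor needed for CD4 T cell development, rose by 2.43 in the heart and by 1.82 at POD5. The other 3 called in the heart, named after their values were seen, were Zbtb7b, Foxp3 and Il21. Zbtb7b, which encodes ThPOK, the CD4 lineage factor, rose by 0.87. Foxp3 of regulatory T cells and Il21, a helper cytokine, were well above background on no heart control and on 2 and 1 of the 3 allografts, so that they passed without a measured fold. Il2 read 0.11 in the heart (adjusted p = 0.88), and Cd40lg, the CD40 ligand, was not well above background on any array. In the liver the genes called, also named after their values were seen, were Gata3, Cxcr5 and Il21 at both times and Tox at POD5. Gata3, a factor of CD4 lineage choice and of type 2 helper cells, rose by 4.68 and 3.97 and read 1.86 in the heart (adjusted p = 0.078), and Cxcr5, a chemokine receptor of follicular helper and B cells, rose by 2.49 and 2.41 and read 0.64 (adjusted p = 0.43). Both were well above background on 1 of 3 liver controls. Il21 was well above background on no liver control and on all 3 allografts of each time. Its bound was 1.01-fold at POD8 and none could be given at POD5, so it passed there too without a measured fold. The list median was 1.33 in the heart, or 0.86 with bounds, and 0.69 and 0.92 at the liver times, or 0.75 with bounds at POD8. The POD5 median holds the fitted Il21 value, since no bound could be given.

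**Figure D5:**
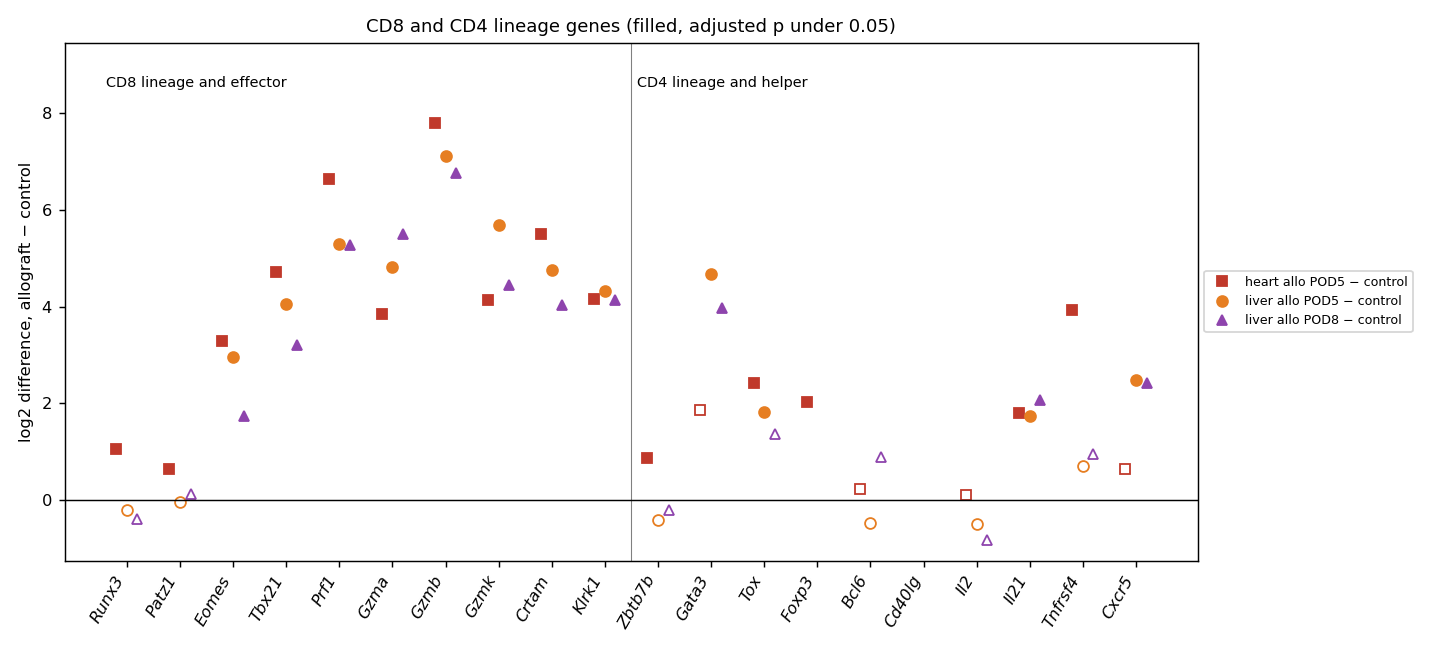
Log2 difference of allografts minus controls (vertical axis) for 10 genes of the CD8 lineage and 10 of the CD4 lineage (horizontal axis) in the heart and at both liver times; filled symbols passed an adjusted p of 0.05, and genes not well above background in both groups are left out. Gzmb and Prf1 reach 7.80 and 6.65 in the heart, while no Il2 symbol is filled. Symbols show fitted values, also where controls were not well above background, as for Prf1 in the liver and for Foxp3 and Il21, which passed without a measured fold.

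None of the 38 genes of these lists passed between POD8 and POD5 in limma, where 0.0293% of all probes were called, and 7 had an unadjusted p under 0.05.

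Markers of several other cell types moved with Cd8a, in comparisons that called 28.6% (heart), 15.1% (POD5) and 11.7% (POD8) of all probes. The 6 T cell markers summed to 9044 to 13470 in heart allografts and 401.9 to 615.3 in heart controls, and to 6018 to 9502 at POD5, 4653 to 6153 at POD8 and 623.8 to 823.9 in controls of the liver; 6 of 6 rose in the heart and 5 of 6, without Cd3e, at each liver time. Type 1 dendritic cells carry CD8 alpha in mouse lymphoid tissue: 4 of their 4 measured markers rose in the heart, 2 at POD5 and 3 at POD8, with sums of 18050 to 22520 against 1214 to 1872 in the heart and of 6300 to 10780 against 1747 to 2156 in the liver. Irf8 and Batf3, transcription factors needed for these cells, rose in all 3 comparisons, by 3.83 and 3.68 in the heart and by 2.35 and 1.29 at POD5 in the liver. Xcr1, their chemokine receptor, rose by 2.18 in the heart and read -0.13 and -0.28 in the liver (adjusted p = 0.87 and 0.67), and Itgae, the integrin chain CD103, rose in the heart and at POD8. The type 1 dendritic sums lean on the brightest genes. In heart allografts Irf8 and Batf3 had mean log2 signals of 14.04 and 11.49, against 7.53 for Xcr1 and 7.58 for Itgae.

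Natural killer markers summed to 618.5 to 798.8 against 155.9 to 197.6 in the heart and to 102.8 to 245 against 35.51 to 63.16 in the liver, where Ncr1, Klra8 and Klre1 were not well above background on any control. Of the 4, all rose in the heart and at POD8, and Klra8 and Klre1 rose at POD5. The B cell genes Ms4a1, Cd79a and Cd79b did not pass in any of the 3 comparisons. Of 3 macrophage markers Adgre1, which encodes F4/80, and Csf1r rose, by 1.64 and 1.76 at POD8, and none passed in the other comparisons. For plasmacytoid dendritic cells, which carry CD4, Bst2 rose by 2.06 and Tcf4 fell by 1.09 in the heart, Bst2 rose by 1.09 and 0.96 in the liver, and Siglech passed at POD8 with 1 of 3 allografts and no control above background. The part of each cell type in the Cd8a and Cd4 signals was not tested. In whole tissue, more cells of a type and more RNA per cell cannot be told apart.

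Among 19632 named probes well above background on at least 9 arrays, those most like A_51_P345121 over the 15 arrays were Septin1, Cd74, Gfi1, Cd3g and Lrmp, with Pearson r of 0.993, 0.991, 0.989, 0.985 and 0.984. These are correlations of log2 signals over arrays that share organ and treatment, given as a description. Cd74 encodes the invariant chain of class II molecules, and Gfi1 a transcriptional repressor of blood cells. Cd74 rose by 2.99 in the heart and by 3.84 and 4.24 in the liver. The 3 Cd8a probes correlated with each other at 0.962 to 0.978.

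The probes most like Cd4 were Gpr152, Tmem79, Ccnk, Lama3 and Mepe, with r of 0.980, 0.978, 0.978, 0.976 and 0.976, and none of these genes was on the T cell list. Ccnk encodes a cyclin, Lama3 a laminin chain and Mepe a bone matrix protein. All 5 rose in the heart, by 1.08 to 1.59 on the log2 scale, and had their highest normalized mean in liver controls, as Cd4 did. Cd4 and A_51_P345121 correlated at 0.0329 over the 15 arrays, and at 0.824 within the heart and -0.731 within the liver. Each organ value mixes allografts and controls. In the liver controls Cd8a was not well above background, and the sign of the Cd4 difference there depended on the scaling. Among heart allografts replicate 2 was lowest for Cd8a and highest for Cd4.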

How the data were processed

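Total RNA of whole grafts and control tissue was hybridised to one-colour (Cy3) Agilent mouse arrays, 1 per sample. The deposited scanner files, made by the authors with Feature Extraction 10.5.1.1 per the file headers, hold intensity values that the software had already background-subtracted (processed signal). Outlier-flagged spots (47 to 113 per array) and controls were left out, and no spot was saturated. Spots of a probe were averaged, the log2 values of all 15 arrays were quantile normalized together, and 1 limma fit (3.58.1, R 4.3.3) with 5 group means was made over the 41003 probes with a value on all arrays, with Benjamini-Hochberg adjustment and a threshold of 0.05. A probe counted as well above background where at least 0.5 of its spots were so marked. Accessions were matched to RefSeq symbols (26690 probes, 64.8%; 18217 symbols), and a gene of a list stands by its probe with the highest mean.

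The members and lists were chosen with earlier results of these data known. All member probes and all ligand and signalling genes were named. Of the CD8 and CD4 lineage lists, the 2 largest and 2 smallest differences in the heart were named, with further CD4 genes as stated. The 5 most correlated genes were also named. Cell type markers were named without such a rule. Alternatives were normalization by phase, by organ and to the 75th percentile, normexp (offset 50, on median spot and background intensities), a filter on dim probes, a robust prior, flagged spots kept, slide and replicate blocks, the methods' t-test, SFC (bin 1000) and leaving out each array. The mean of CD3 chains, the values within 1 slide and Cd8a of liver controls at its bound in the balances were added after seeing the data. The fit was tested on simulated data. The number of arrays limits the precision. Figures were drawn with matplotlib 3.10.9. A marker gene is not reported here.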

Additional observations from a re-analysis of the deposited data

Results flagged for a closer look

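For 2 members the allograft response at POD5 differed between heart and liver by the interaction term of limma, which called 18% of all probes. Cd8a probe A_51_P345121 had a heart minus liver difference of -1.96 (adjusted p = 0.0073), but its liver controls were not well above background. With these at their bound the difference was -0.68, and with normexp it was -0.16 (adjusted p = 0.78). Cd4 differed by 0.923 (adjusted p = 0.015), higher in the heart, where all 3 allografts lay above all 3 controls, as on 29% of all probes. Its processed signals in the heart overlapped between the groups. The heart call of Cd4 ended under SFC and under the methods' t-test with Benjamini-Hochberg adjustment.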

How the results depend on the processing

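The number of member probes called did not change when any array was left out (4 to 4 in the heart, 3 to 3 at each liver time, 0 to 0 between liver times, 2 to 2 for the organ difference). With Bonferroni adjustment the methods' t-test called 0 members in the heart, 0 at POD5 and 1 at POD8 in the liver; with Benjamini-Hochberg adjustment it lost A_52_P150547 at POD5 (adjusted p = 0.081). With normexp 1 member passed for the organ difference. Signs turned for values near 0 between liver times: A_51_P345121 was -0.003799 with slide as a random block and -0.163 to 0.151 when arrays were left out, A_52_P150547 -0.028 to 0.682, A_52_P443334 -0.276 to 0.127, and Cd8a minus Cd3e -0.199 to 0.421; Cd4 minus Cd3e was 0.0573 with the mean CD3 signal. The Cd8a minus Cd4 shift kept its sign throughout, at 4.59 with normexp over both organs, and, with liver controls as fitted, 6.62 to 7 when arrays were left out. Scaling to the 75th percentile moved the median of all probes by 0.467, -0.388 and -0.468 in the heart and at the liver times; relative to it Cd4 was 0.68, 0.26 and 0.01, so that its sign in the liver depends on the scaling. Calls over all probes were then 20688, 11295 and 14188 against 11721, 6207 and 4787, with 73.6%, 27% and 19.9% higher against 46.4%, 53.6% and 60.2%, and 16967 against 7393 for the organ difference. They were 7226 and 3584 with slide as a random block in the heart and at POD5, 1506 and 2238 by phase at the liver times, and 4082 by organ at POD5. SFC called 243, 361 and 397. Same-numbered arrays did not deviate together (correlations of -0.123 to 0.044), so numbers do not pair arrays; with the replicate block the member calls were the same, and the Cd8a minus Cd4 shift over both organs had an exact permutation p of 0.0046. Balances with Cd8b1 were not run, since no probe was matched.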
